A study of Mus musculus with 8 samples.

Results

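The fatty acid elongases are described here from RNA-Seq of mouse brown adipose tissue (BAT). The family was taken as the rows of the expression table whose symbol was Elovl1, Elovl2, Elovl3, Elovl4, Elovl5, Elovl6 or Elovl7, which gave 7 of 49452 genes, all protein-coding. The table holds 8 BAT libraries of male C57BL/6 mice in 4 groups of 2, and the labels name no genetic change in any group. Mice were housed at 22 °C (replicates 4 and 7), held at 4 °C for 24 h (replicates 2 and 11), given normal chow (NCD, replicates 6 and 8) or given high-fat diet (HFD, replicates 2 and 6). The mice of the diet groups were older than those of the temperature groups. The labels name the food of the NCD group as chow, whereas the methods of the study describe a control diet matched in micronutrients, and by the methods food was withdrawn late in the cold exposure, where it is not clear if this was also done at 22 °C. Values are FPKM, which are fragments scaled by transcript length and by the number mapped in a library, so that levels can be set side by side between genes of different length.

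Elongases are enzymes of the endoplasmic reticulum that catalyse the first and rate-limiting step of microsomal chain lengthening, the condensation of an acyl-CoA with malonyl-CoA. A reductase (Hsd17b12), a dehydratase (Hacd1 to Hacd4) and a second reductase (Tecr) then complete a cycle shared by all members, so that the elongase sets which chains are lengthened. Elovl6 acts on palmitate and shorter saturated chains, Elovl3, Elovl1 and Elovl7 on longer saturated and monounsaturated chains, Elovl5 and Elovl2 on polyunsaturated chains, and Elovl4 makes the longest chains of retina, brain and skin. Elovl3 is known as a cold-inducible gene of brown fat that is also expressed in skin, and Elovl6 as a lipogenic gene under control of the sterol response factor encoded by Srebf1.

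All 7 coding sequences carried the histidine box, the catalytic motif of the family, once each. The coding stretches around it are shown because they show how the members group by sequence, with the 15 bases of the box in capitals and 15 coding bases on either side in lower case, read 5′ to 3′ from the principal GENCODE M21 transcripts (GRCm38):
Elovl1: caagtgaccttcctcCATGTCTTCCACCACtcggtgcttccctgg
Elovl7: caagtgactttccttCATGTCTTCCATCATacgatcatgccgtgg
Elovl5: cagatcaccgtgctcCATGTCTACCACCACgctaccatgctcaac
Elovl2: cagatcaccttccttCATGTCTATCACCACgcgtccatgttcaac
Elovl4: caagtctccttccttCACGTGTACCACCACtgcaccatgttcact
Elovl6: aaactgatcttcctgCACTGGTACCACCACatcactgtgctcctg
Elovl3: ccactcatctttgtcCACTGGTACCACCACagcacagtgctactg

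The boxes of Elovl3 and Elovl6 were identical over their 15 bases, and their 45 bases shown differed at 9 positions. The closest stretch to that of Elovl5 was that of Elovl2, with 7 of 45 bases different, and the stretches of Elovl1 and Elovl7 differed at 10. Over whole coding sequences of 801 to 936 bases the identity between members ran from 56.8% for Elovl2 with Elovl3 to 66.2% for Elovl2 with Elovl5 in the 21 pairs, counted over aligned bases. Elovl1 and Elovl7 were 65.2% identical and Elovl3 and Elovl6 63.2%.

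The stretch of Elovl3 lies at chr19:46134407-46134451 on the plus strand in the fourth and last exon of a gene that the table places at chr19:46131897-46135307. That of Elovl6 lies at chr3:129633092-129633136 in the last of 5 exons of a plus-strand gene at chr3:129532355-129638495. The stretch of Elovl1 is at chr4:118431439-118431483 in exon 6 of 8 (gene at chr4:118428093-118432953, plus strand), that of Elovl5 at chr9:77976835-77976879 in exon 5 of 8 (gene at chr9:77917364-77984519, plus strand) and that of Elovl4 at chr9:83785075-83785119 in exon 4 of 6 (gene at chr9:83778692-83806277, minus strand). Elovl2 and Elovl7 both lie on chromosome 13, with their stretches at chr13:41189986-41190030 in exon 5 of 8 on the minus strand and at chr13:108274316-108274360 in exon 6 of 8 on the plus strand. Exons of Elovl1 overlap those of Cdc20 on the opposite strand, which was at 0.101 to 0.569 FPKM, and exons of Elovl6 overlap those of the antisense gene Gm35986, which was at 0 to 2.37 FPKM. The libraries were directional, but the strand setting of the quantification is not given in the sources used here.

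The libraries differed in ways that cross the groups. Genes of the X and Y chromosomes were listed at 0 in both 22 °C libraries and in NCD replicate 6, so that sex-chromosome and mitochondrial genes were left out of the tests, and no elongase lies there. The satellite-repeat gene Gm10800 exceeded 100 FPKM in HFD replicate 2, NCD replicate 8, 4 °C replicate 11 and 22 °C replicate 4, which are called satellite-high. Ucp1, the uncoupling protein of brown fat, was at 699 and 1427 FPKM at 22 °C, at 6462 and 5371 FPKM at 4 °C, at 3519 and 2300 FPKM on NCD and at 2026 and 2976 FPKM on HFD, and all 12 brown adipocyte markers checked were above 0.1 FPKM in every group. Low values fell on whole multiples of 1 fragment in 98.0% to 98.9% of the cases tested, within 0.1 fragment, and 1 fragment on a transcript of 2000 bases corresponded to 0.00440 to 0.00603 FPKM. In bulk tissue, fewer cells of a type and less RNA per cell cannot be told apart.

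Elovl3, Elovl6, Elovl5 and Elovl1 made up nearly all of the elongase mRNA, and Elovl4, Elovl7 and Elovl2 stayed under 0.56 FPKM in all 8 libraries. The pool of the family summed to 75.1 and 175 FPKM at 22 °C, 709 and 461 FPKM at 4 °C, 336 and 200.2 FPKM on NCD and 52.6 and 54.2 FPKM on HFD. Elovl6 was the most abundant member at 22 °C and Elovl3 in the other 3 groups.

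**Figure D1:**
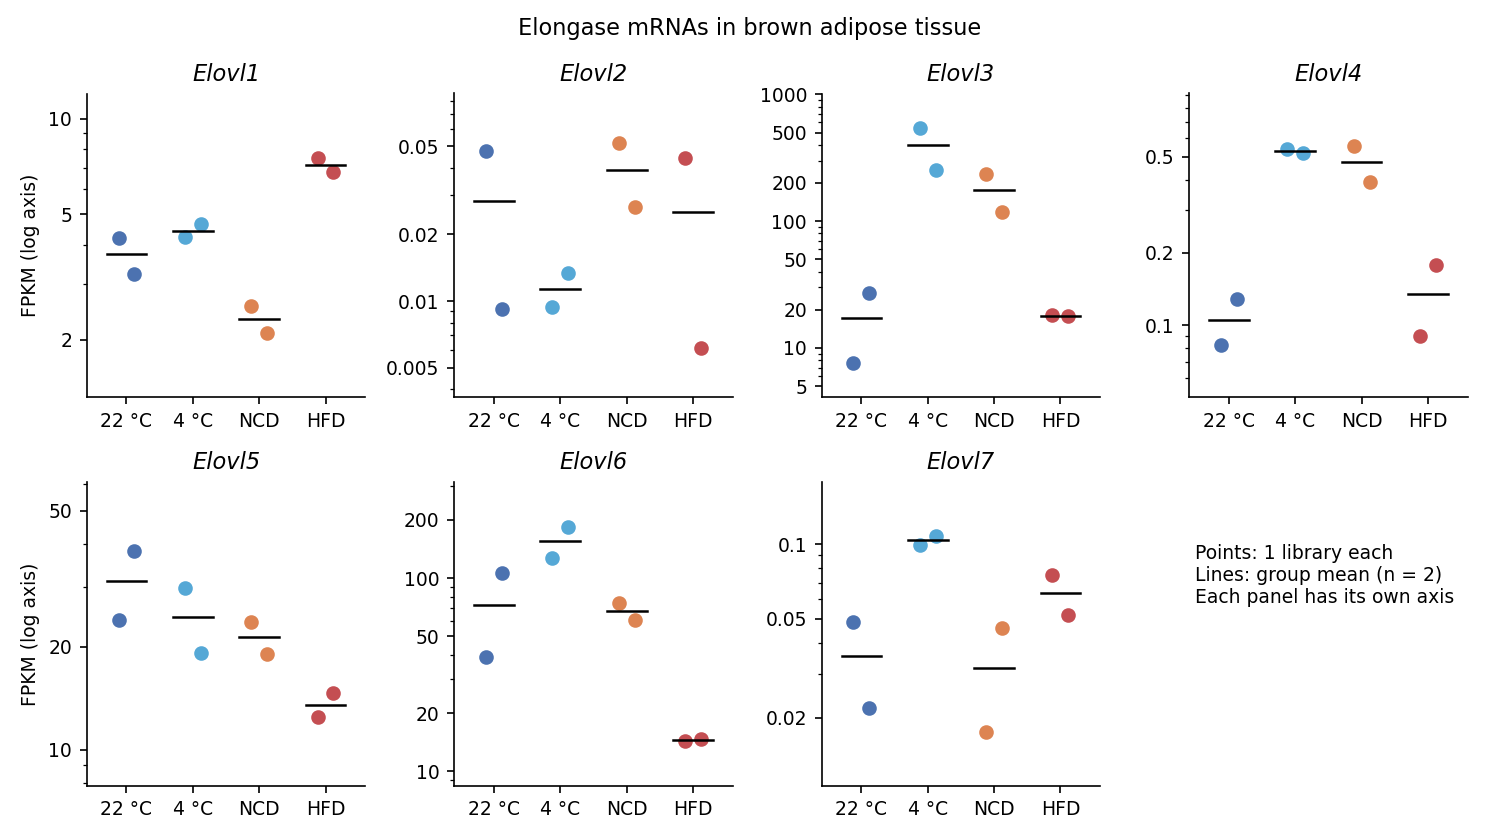
FPKM of each elongase (log axis, 1 panel per gene with its own axis) in the 4 groups, with 1 point per library and a line at the group mean (n = 2). Elovl3 spans 7.59 to 547 FPKM, with both 4 °C libraries above all others, whereas Elovl1 is highest in the HFD libraries at 7.52 and 6.79 FPKM.

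The first comparison asked which elongases follow the activation of BAT by cold. Elovl3 was at 7.59 and 27.1 FPKM at 22 °C and at 547 and 252 FPKM at 4 °C. Each cold library exceeded each 22 °C library, with group means of 399 ± 209 and 17.3 ± 13.8 FPKM (SD, n = 2), a ratio of 23.0. On the log2(FPKM + 1) scale Elovl3 rose by 4.58 (SE 0.66), past the threshold of an adjusted p under 0.05 with at least a 2-fold difference (limma, Benjamini-Hochberg adjusted p = 0.0467). It was the only member past that threshold, 1 of the 5 tested, against a background of 1.44% of 17477 genes in either direction and 1.22% higher. The limma adjusted p was 0.177 with no filter on low values and 0.0905 without the intensity trend of limma. The call was also lost without 4 °C replicate 2 (difference 4.02) or 11 (5.14), with the lone 4 °C library taken to vary like the 22 °C group. It stayed without 22 °C replicate 4 (3.73) or 7 (5.44), with the spread taken from the 4 °C group. The call thus rested on these settings, while the difference ran from 3.73 to 5.44 over 15 alternatives. Changes of filter, trend, chromosomes, groups fitted or library type term left it at 4.58, since they cannot alter this difference of group means. Within satellite-high libraries Elovl3 was higher by 4.88 and within satellite-low libraries by 4.29.

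Elovl4 was at 0.0827 and 0.128 FPKM at 22 °C and at 0.537 and 0.518 FPKM at 4 °C, which corresponds to about 29 and 43 fragments against about 137 and 152. The group means differed by a ratio of 5.01, at levels 486 to 1018 times under those of Elovl3 in the cold libraries. Its difference of 0.47 (SE 0.06) on the log2(FPKM + 1) scale had a limma adjusted p of 0.0449, where 1.81% of genes were under 0.05 at any size of difference, but lay under the 2-fold limit, which the added 1 makes hard to reach at this level. Elovl4 met the filter of 0.1 FPKM in 2 libraries through the 4 °C group, since 1 of the 22 °C libraries was under it. With 0.1 added in place of 1, under the same filter, the difference was 1.62 (limma adjusted p = 0.0482) and past the threshold. With 1 added, the limma adjusted p was 0.18 with no filter, 0.145 with median centring and 0.102 without the intensity trend. It was also over 0.05 without 22 °C replicate 4 and without either 4 °C library, with the lone library taken to vary like the other group.

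Elovl6 was at 39.2 and 107 FPKM at 22 °C and at 127 and 185 FPKM at 4 °C. The groups did not overlap, but the 22 °C libraries differed from each other by more than the higher of them differed from the lower cold library. The difference of 1.23 (SE 0.51) had a limma adjusted p of 0.22, and it was 2.21 within satellite-high and 0.25 within satellite-low libraries. It was 1.94 (limma adjusted p = 0.0110) without 22 °C replicate 7 and 0.52 (limma adjusted p = 0.806) without 22 °C replicate 4, each with the lone 22 °C library taken to vary like the 4 °C group.

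Elovl1 was at 4.21 and 3.24 FPKM at 22 °C and at 4.22 and 4.64 FPKM at 4 °C, a difference of 0.21 (SE 0.20, limma adjusted p = 0.556). The cold libraries lay just above the others, but the median difference over mRNAs averaging 1 FPKM or more was also 0.21, and the sign turned to -0.13 after rescaling to the autosomal sum, which moved that median to -0.13, and to -0.0049 after quantile normalization. Elovl5 overlapped between the groups, at 23.9 and 38.3 FPKM against 29.7 and 19.2 FPKM, a difference of -0.33 (SE 0.33, limma adjusted p = 0.583). That difference was -0.0014 without 22 °C replicate 7, -0.028 without 4 °C replicate 11, -0.66 without 22 °C replicate 4, -0.63 without 4 °C replicate 2 and -0.79 after quantile normalization. Elovl7 was at 0.0488 and 0.0219 FPKM at 22 °C and at 0.0993 and 0.108 FPKM at 4 °C, or about 10 to 23 fragments against 34 to 43, and Elovl2 was at 0.0474 and 0.00926 against 0.00937 and 0.0133 FPKM, about 3 to 21 fragments in these libraries. Both were under the filter of 0.1 FPKM in 2 libraries, and in the fit without a filter their limma adjusted p-values were 0.256 and 0.657. Of the 5 members tested, 4 were higher in both cold libraries than in both others and none lower, where 37.9% of all genes tested did not overlap in that direction and 20.6% in the other. Elovl4 is 1 of the 4, and it met the filter only through the 4 °C group, where it is high.

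The second comparison asked which elongases differ in BAT of mice fed a HFD. Elovl3 was at 234 and 118 FPKM on NCD and at 18.1 and 17.8 FPKM on HFD. Both HFD libraries lay well under both NCD libraries, with means of 17.9 ± 0.176 and 176 ± 82.1 FPKM (SD, n = 2), 9.82-fold lower. The difference of -3.14 (SE 0.50) on the log2(FPKM + 1) scale did not pass the test (limma adjusted p = 0.118). No member did, where 12 of 17543 genes (0.0684%) were past threshold in this comparison, 0.0513% higher, and 0.0855% had an adjusted p under 0.05 at any size.

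Elovl6 was at 74.5 and 60.5 FPKM on NCD and at 14.4 and 14.7 FPKM on HFD, a ratio of 4.65 between the means. Its difference was -2.13 (SE 0.40, limma adjusted p = 0.141). Elovl5, which lengthens polyunsaturated chains, was at 23.6 and 19.0 FPKM on NCD and at 12.5 and 14.6 FPKM on HFD, with a difference of -0.61 (SE 0.37, limma adjusted p = 0.505). Elovl4 was at 0.556 and 0.394 FPKM on NCD and at 0.0904 and 0.178 FPKM on HFD, or about 187 and 105 fragments against 26 and 46, with a difference of -0.38 (SE 0.10, limma adjusted p = 0.184) and of -1.31 (limma adjusted p = 0.228) with 0.1 added in place of 1. All of these were lower in both HFD libraries than in both NCD libraries.

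Elovl1 went the other way. It was at 2.57 and 2.11 FPKM on NCD and at 7.52 and 6.79 FPKM on HFD, 3.06-fold higher between the means, and the groups were well apart. The difference of 1.29 (SE 0.29) had a limma adjusted p of 0.16, and the median over mRNAs averaging 1 FPKM or more was 0.29 here. After rescaling to the autosomal sum the difference was 1.16 for Elovl1, -3.31 for Elovl3 and -2.29 for Elovl6. Elovl7 was at 0.0175 and 0.0461 FPKM against 0.0749 and 0.0520 FPKM, and Elovl2 overlapped, at 0.0518 and 0.0267 against 0.0443 and 0.00615 FPKM, the last being about 2 fragments. In the fit without a filter their limma adjusted p-values were 0.856 and 0.947. Of the 5 members tested, 4 were lower without overlap and 1 higher, where 5.8% of all genes tested were lower and 39.9% higher in this way. Elovl4 is 1 of the 4 and met the filter only through the NCD group, where it is high.

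The calls of the diet comparison depended on the samples and terms of the fit. With library type (satellite-high or satellite-low) as a term, which leaves 1 residual degree of freedom, the limma adjusted p was 0.00339 for Elovl3, 0.00345 for Elovl6 and 0.00766 for Elovl1, all past threshold, 0.0181 for Elovl4, under the 2-fold limit, and 0.0514 for Elovl5. With that term and all 8 libraries in the fit it was 0.0264 for Elovl3 and Elovl1 and 0.0414 for Elovl6, and with all 8 libraries but no such term only Elovl1 passed (limma adjusted p = 0.0479). Without NCD replicate 6, Elovl3, Elovl6 and Elovl1 were past threshold, with the lone NCD library taken to vary like the HFD group. Without NCD replicate 8, Elovl3 (-3.63) and Elovl6 (-2.28) were, but not Elovl1 (1.19). Without HFD replicate 2 or 6 no member passed, with the lone HFD library taken to vary like the NCD group. The differences were then -3.15 and -3.13 for Elovl3, -2.12 and -2.15 for Elovl6 and 1.23 and 1.36 for Elovl1. The labels carry an identifier whose prefix is shared by NCD replicate 8 and both HFD libraries and differs in the other 5 libraries, and what it stands for is not given in the sources used here. Without NCD replicate 6, and so within that prefix, the differences were -2.65 for Elovl3, -1.99 for Elovl6 and 1.39 for Elovl1.

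**Figure D2:**
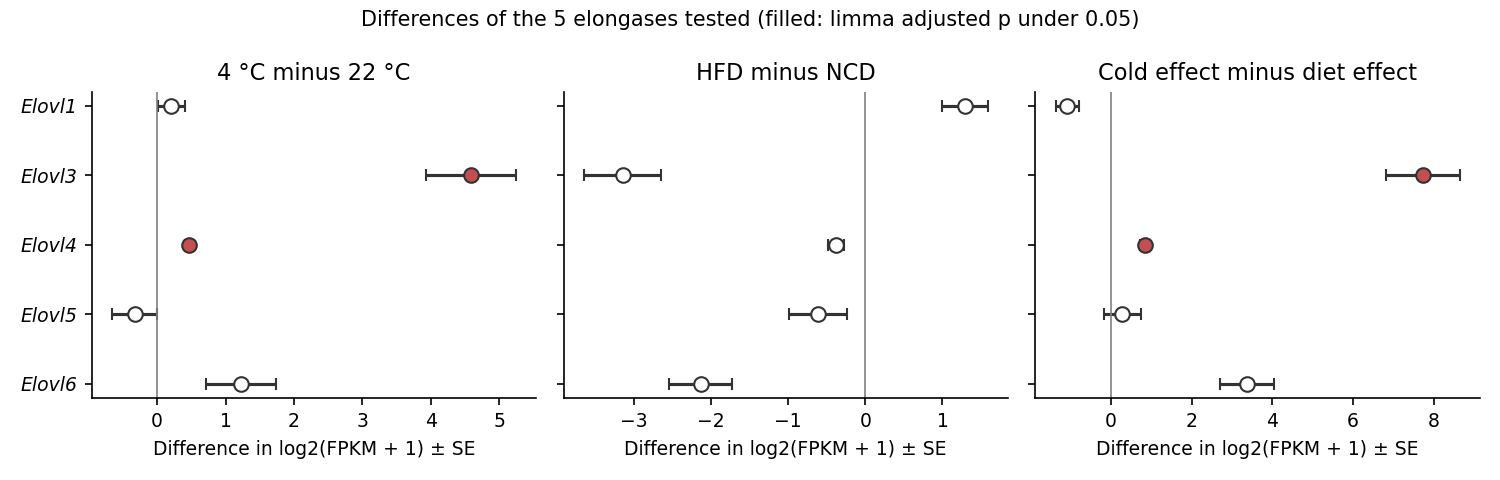
Differences in log2(FPKM + 1) with their SE for the 5 elongases tested, 4 °C minus 22 °C (left), HFD minus NCD (middle) and the first difference minus the second (right). Filled points have a limma adjusted p under 0.05. Elovl3 and Elovl4 are filled at left and right, with Elovl3 at 4.58 and 7.73, and no point is filled in the diet panel.

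Whether a member responded differently to cold and to HFD was tested on all 8 libraries as the difference between both effects. For Elovl3 it was 7.73 (SE 0.91, limma adjusted p = 0.0253), past threshold, where 1.04% of 18902 genes were. That p was 0.0560 without 22 °C replicate 4, 0.0600 without 4 °C replicate 2, 0.0889 without HFD replicate 2, 0.0952 without HFD replicate 6, 0.0845 with no filter and 0.0626 without the intensity trend. Over the fits that each left out 1 library the difference ran from 6.87 to 8.58, and that of Elovl6 from 2.65 to 4.07. Elovl4 gave 0.85 (SE 0.11, limma adjusted p = 0.0358), under the 2-fold limit (1.29% of genes were under 0.05 at any size), and 2.93 (limma adjusted p = 0.0361) with 0.1 added in place of 1. With 1 added its limma adjusted p was 0.103 and 0.126 without 22 °C replicate 4 or 7, 0.0872 without 4 °C replicate 2, 0.0944 and 0.0997 without HFD replicate 2 or 6, 0.134 with no filter and 0.0801 without the trend. For Elovl6 the difference was 3.36 (SE 0.67) and for Elovl1 -1.08 (SE 0.29), with limma adjusted p-values of 0.0624 and 0.108, and under rescaling to the autosomal sum both passed, at 0.0456 and 0.0469. Elovl6 also passed with library type as a term (limma adjusted p = 0.0410) and with median centring (limma adjusted p = 0.0403). Elovl5 gave 0.28 (SE 0.46, limma adjusted p = 0.812), and its sign turned without 22 °C replicate 4 (-0.045) or without 4 °C replicate 2 (-0.018).

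The reference groups of both comparisons were not alike. Elovl3 was 10.2-fold higher on NCD than at 22 °C between the means, and Elovl4 4.51-fold, with no overlap in either gene. The differences of 3.43 (SE 0.67) and 0.41 (SE 0.09) had limma adjusted p-values of 0.231 and 0.265, Elovl4 having met the filter through the NCD group. None of 17337 genes was past threshold in this comparison (0.0%), although 2079 had an unadjusted limma p under 0.05, and Elovl3 was at 4.29 (limma adjusted p = 0.00756) without 22 °C replicate 7 and at 2.58 (limma adjusted p = 0.622) without 22 °C replicate 4, each with the spread taken from the NCD libraries alone. With library type as a term the difference of 3.43 in Elovl3 was past threshold, at a limma adjusted p of 2.58e-08. That fit leaves 1 residual degree of freedom, and the limma adjusted p was 0.0273 with all 8 libraries fitted. Elovl1 was lower on NCD by 0.50 and Elovl5 lower by 0.50, both without overlap (limma adjusted p = 0.491 and 0.667), where 12.2% of genes tested were higher and 31.0% lower without overlap. Age separates these groups. Food may as well, since the labels name chow for NCD, but the paper describes its 22 °C mice as fed the control diet. The identifier prefix of NCD replicate 8 also differs from that of both 22 °C libraries, whereas NCD replicate 6 shares theirs. Without NCD replicate 8 the difference in Elovl3 was 3.92. Any effects of age and food cannot be told apart, the part of what the prefix stands for was not tested, and the comparison shares its libraries with the others.

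Ordered by group means, Elovl3 ran from 4 °C over NCD to HFD and 22 °C, and only the last pair overlapped. Elovl4 kept that order of means, with overlap between 4 °C and NCD and between HFD and 22 °C. Elovl6 ran from 4 °C over 22 °C and NCD to HFD, with 22 °C and NCD overlapping and a 10.7-fold range of the means, and Elovl5 from 22 °C over 4 °C and NCD to HFD, where only HFD stood clear of its neighbour. Elovl1 ran from HFD over 4 °C and 22 °C to NCD with no overlap between neighbours, over a 3.06-fold range. Elovl7 ran from 4 °C over HFD to 22 °C and NCD, the last pair overlapping, and neighbouring groups overlapped throughout for Elovl2. With 2 libraries against 2 the smallest two-sided p of an exact permutation test is 0.333, so single ratios and shares were not tested.

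Because a share or ratio within a library does not depend on how libraries are scaled to each other, the composition of the pool was read next. Elovl3 held 10.1% and 15.4% of the summed elongase FPKM at 22 °C, 77.2% and 54.6% at 4 °C, 69.8% and 59.0% on NCD and 34.3% and 32.9% on HFD. Elovl6 held 52.2% and 60.8% at 22 °C, 18.0% and 40.1% at 4 °C, 22.2% and 30.2% on NCD and 27.3% and 27.1% on HFD. Elovl6 thus had its highest shares at 22 °C although its own level was highest at 4 °C. Elovl1 held 14.3% and 12.5% on HFD and between 0.596% and 5.61% in the other 6 libraries. The share of Elovl5 was 31.8% and 21.8% at 22 °C and 23.7% and 27.0% on HFD, above the 4.17% to 9.50% of the 4 °C and NCD libraries. Elovl2, Elovl4 and Elovl7 each held at most 0.328% in any library.

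**Figure D3:**
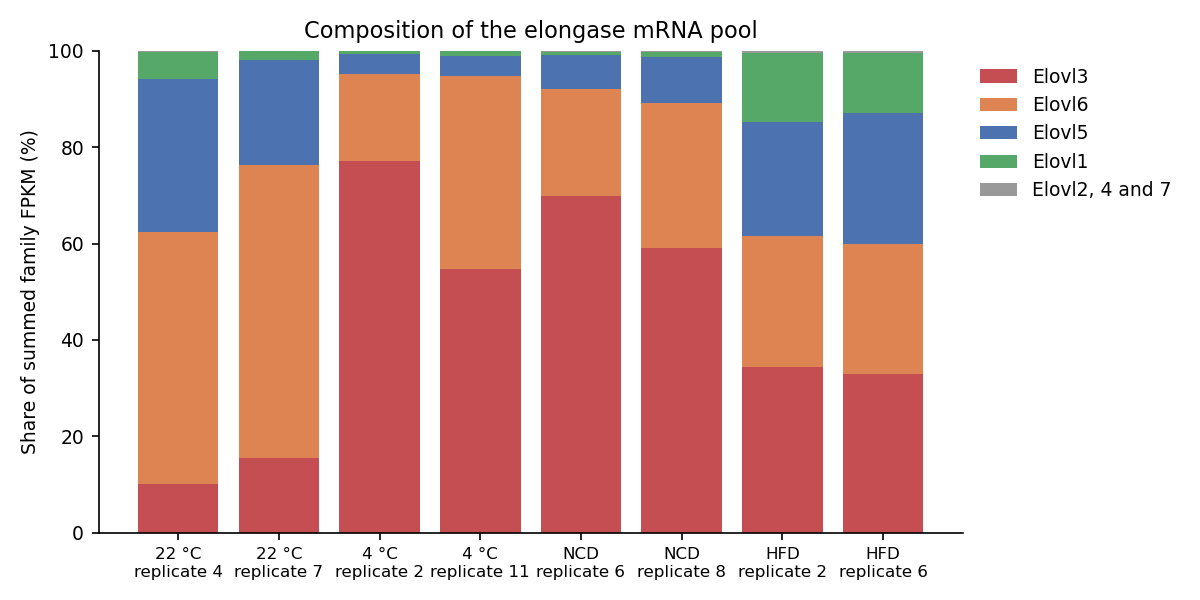
Share of the summed FPKM of the 7 elongases held by each member (stacked bars, %), 1 bar per library. Elovl3 holds 54.6% to 77.2% in the 4 °C and NCD libraries, 32.9% to 34.3% in the HFD libraries and 10.1% to 15.4% in the 22 °C libraries.

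The ratio of Elovl3 to Elovl6 was 0.193 to 0.254 at 22 °C, 1.36 to 4.29 at 4 °C, 1.95 to 3.14 on NCD and 1.21 to 1.26 on HFD. Both 22 °C libraries lay under all others. In HFD, Elovl3 and Elovl6 were both low and their ratio lay under that of both NCD libraries. The ratio of Elovl6 to Elovl5 was 1.64 to 2.79 at 22 °C, 4.29 to 9.61 at 4 °C, 3.16 to 3.18 on NCD and at most 1.15 on HFD, so that the saturated-chain elongase exceeded the polyunsaturated-chain elongase least on HFD. Elovl1 stood to Elovl5 at 0.463 to 0.604 on HFD and at 0.0846 to 0.242 in the other 6 libraries.

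**Figure D4:**
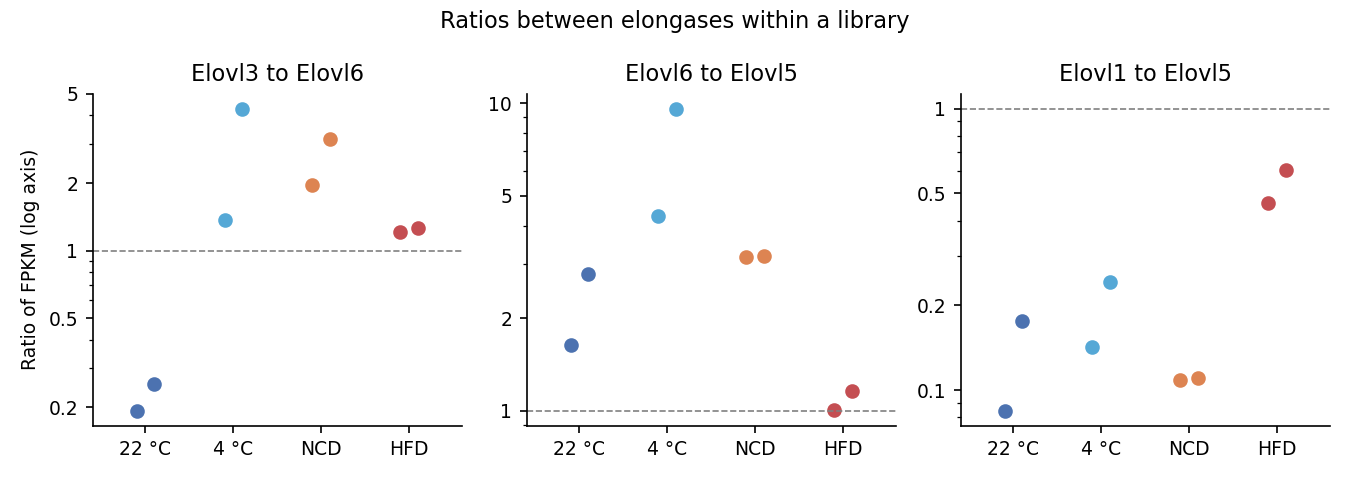
Ratio of FPKM between elongases of the same library (log axis, 1 point per library, dashed line at 1) in the 4 groups. Elovl3 to Elovl6 lies at 0.193 to 0.254 in the 22 °C libraries and above 1 in all others, and Elovl1 to Elovl5 is highest in the HFD libraries, at 0.463 to 0.604.

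Upstream windows are shown for Elovl6 and Elovl4, which were both higher at 4 °C and lower on HFD without overlap, and for Elovl1, which went the other way on HFD. RefSeq promoter entries (GRCm38.p6) matched 6 of the 7 members, Elovl3 being the other, and the first of 2 entries is shown for Elovl1. The windows end before the start of the gene in the table. Capitals mark matches on either strand to 4 short motifs that may share bases with each other. The E-box was searched as CACGTG. The half-site bound by nuclear receptors was searched with the letters AGGTCA. For the promoter element known as the CCAAT box these 5 letters were used, and the GC box was searched with the letters GGGCGG. Elovl6 at chr3:129532136-129532354 (plus strand), Elovl4 at chr9:83806306-83806555 (minus strand) and Elovl1 at chr4:118427843-118428092 (plus strand) read:
Elovl6: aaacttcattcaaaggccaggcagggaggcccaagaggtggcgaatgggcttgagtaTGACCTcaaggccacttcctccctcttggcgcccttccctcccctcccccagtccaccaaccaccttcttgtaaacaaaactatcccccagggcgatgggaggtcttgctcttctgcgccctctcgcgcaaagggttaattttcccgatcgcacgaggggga
Elovl4: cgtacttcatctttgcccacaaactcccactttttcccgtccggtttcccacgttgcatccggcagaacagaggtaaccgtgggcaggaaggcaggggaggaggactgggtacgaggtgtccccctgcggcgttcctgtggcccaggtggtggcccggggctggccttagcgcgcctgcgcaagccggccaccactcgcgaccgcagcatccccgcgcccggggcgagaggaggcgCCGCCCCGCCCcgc
Elovl1: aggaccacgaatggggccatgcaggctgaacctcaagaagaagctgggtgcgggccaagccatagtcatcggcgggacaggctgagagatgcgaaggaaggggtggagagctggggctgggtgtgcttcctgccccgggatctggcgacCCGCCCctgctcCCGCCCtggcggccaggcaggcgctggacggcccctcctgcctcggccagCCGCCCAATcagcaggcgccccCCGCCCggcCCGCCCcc

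The Elovl6 window held 1 nuclear receptor half-site, a motif found in 14.0% of the 32851 promoter windows of 250 bases in that table, and no GC box, which 32.7% of windows held. The Elovl4 window held 2 GC boxes that share bases, and the Elovl1 window 5 GC boxes and 1 CCAAT box that shares bases with a GC box, where 33.8% of windows held a CCAAT box. None of the 3 held an E-box, which 6.02% of windows held and which was present once for Elovl5. The second Elovl1 entry, not shown, also held 1 nuclear receptor half-site. These are letter matches and not tested sites.

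The genes around the elongases were read from lists of 74 genes, of which 67 could be tested in the cold comparison and 66 in the diet comparison. In the cold, 3 were past threshold, all higher, where 1.22% of all genes tested were past it in that direction. Hacd2, a dehydratase of the elongation cycle, was at 5.22 and 8.29 FPKM at 22 °C and at 54.5 and 48.8 FPKM at 4 °C, a rise of 2.79 (SE 0.26, limma adjusted p = 0.0218). It was the only 1 of 7 cycle partners past threshold. Hsd17b12, the reductase of the second step, was at 16.6 and 19.1 against 30.9 and 41.4 FPKM (difference 0.97, limma adjusted p = 0.0896), whereas Tecr, the last enzyme, and Hacd4 were lower without overlap and not past threshold.

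Mlycd, which breaks down malonyl-CoA, rose from 16.5 and 21.7 to 80.6 and 65.3 FPKM in the cold, by 1.88 (SE 0.25, limma adjusted p = 0.0442). It was 1 of 8 genes of the malonyl-CoA and fatty acid supply. Me1, a source of NADPH, differed by 1.11 (limma adjusted p = 0.248), and Fasn and Acaca, which make palmitate and its malonyl-CoA, overlapped between the groups. Ppargc1a, the coactivator of the thermogenic programme, rose by 2.92 (SE 0.25, limma adjusted p = 0.0208), as 1 of 22 transcriptional regulators. Insig2, of the same list, was at 2.51 and 3.87 FPKM at 22 °C and at 13.7 and 5.44 FPKM at 4 °C. It was higher without overlap (difference 1.23, limma adjusted p = 0.165). Srebf1 was at 42.7 and 65.1 FPKM at 22 °C and at 24.4 and 28.5 FPKM at 4 °C, lower without overlap (difference -0.97, limma adjusted p = 0.117), where Elovl6 was higher without overlap. Acsl5 and Acsl1, which activate fatty acids, differed by 1.83 and 0.64 without overlap, but none of 11 acyl-CoA synthetase and transport genes tested passed, 7 of them being higher without overlap as 37.9% of all genes tested were. Among peroxisomal genes Hsd17b4 was higher by 0.71 and Abcd2, a transporter of very long chains, lower by 0.89 (limma adjusted p = 0.194 and 0.204). Scd1, the main desaturase, differed by -1.02 (limma adjusted p = 0.326), and the ceramide synthases Cers2 and Cers4, which use very long chains, by -0.45 and -0.29 (limma adjusted p = 0.227 and 0.366). Over the 67 genes 26 were higher and 11 lower without overlap, where 37.9% and 20.6% of all genes tested were, with a median difference of 0.13 against 0.07 over all genes tested.

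On HFD none of the 66 genes was past threshold, where 0.0684% of all genes tested were. The list on malonyl-CoA and palmitate held 6 of 8 genes that were lower without overlap and none higher (5.8% and 39.9% of all genes tested), 1 of the 6 being Mlycd, which breaks malonyl-CoA down, with a median of -0.83 against 0.18 over all genes tested. Fasn, the fatty acid synthase, was at 377 and 634 FPKM on NCD and at 56.0 and 35.3 FPKM on HFD (difference -3.43, limma adjusted p = 0.12). Acaca, acetyl-CoA carboxylase, was at 165 and 142 against 35.3 and 33.4 FPKM (difference -2.12, limma adjusted p = 0.151). Acsl5 and Slc27a2, an acyl-CoA synthetase of the transport family, were also lower without overlap, with differences of -2.13 and -1.31 (limma adjusted p = 0.151 and 0.245), as was Hacd2 with -0.77 (limma adjusted p = 0.399).

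Other genes were higher on HFD without overlap. Fads3, of the desaturase family, was at 2.53 and 1.11 FPKM on NCD and at 11.2 and 14.2 FPKM on HFD (difference 2.32, limma adjusted p = 0.118), and Fads1, which acts on polyunsaturated chains, differed by 0.69 (limma adjusted p = 0.301). Cers6 and Cers2 differed by 0.71 and 0.54 (limma adjusted p = 0.24 and 0.577), Abcd2 by 1.47 (limma adjusted p = 0.274) and Hacd4 by 0.51 (limma adjusted p = 0.305). Of the regulators, Nr1d1 and Rxra differed by 0.87 and 0.63 (limma adjusted p = 0.412 and 0.447), and Srebf1 overlapped between the groups in this comparison. Over all lists 16 genes were higher and 11 lower without overlap, beside 39.9% and 5.8% of all genes tested, with a median of 0.12.

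**Figure D5:**
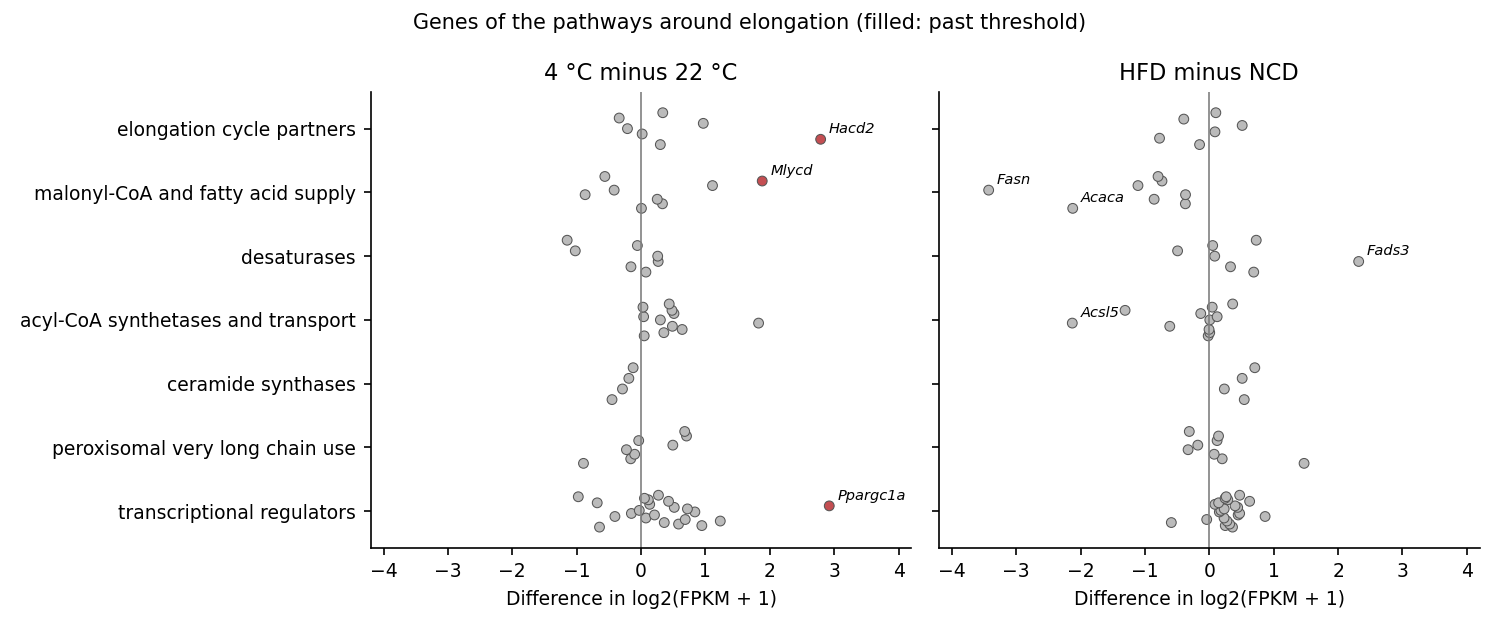
Difference in log2(FPKM + 1) of each tested gene of the 7 pathway lists, 4 °C minus 22 °C (left) and HFD minus NCD (right), 1 point per gene. Filled points are past threshold, and these are Hacd2 (2.79), Mlycd (1.88) and Ppargc1a (2.92) in the cold, with none on HFD, where Fasn lies lowest at -3.43.

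The profiles most like each member over the 8 libraries were sought among 9922 autosomal protein-coding genes averaging 1 FPKM or more, by the root mean square (RMS) difference of centred log2(FPKM + 1). For Elovl6 they were Pygl, the glycogen phosphorylase of liver (0.344), Acsl5 (0.344) and Aspg (0.432), where Elovl6 itself varied around its mean with an RMS of 1.25. Acsl5 was at 21.9 and 71.5 FPKM at 22 °C, 103 and 199 FPKM at 4 °C, 86.8 and 54.5 FPKM on NCD and 13.4 and 16.7 FPKM on HFD. Elovl1 (own RMS 0.47) was closest to Ppp1r18 (0.0702), Sept8 (0.0907) and Sdc3 (0.122), and Elovl5 (own RMS 0.47) to Tspan18 (0.191), Rbp4 (0.208) and St3gal6 (0.219). No gene came close to Elovl3, which had an RMS of 2.06 around its own mean. Its nearest were Lmod2 (0.991) and Asb5 (1.01), both known from muscle, and Ehhadh (1.03), a peroxisomal enzyme at 149 and 113 FPKM at 4 °C against 19.8 and 16.2 FPKM at 22 °C. These values describe 8 libraries that share groups and processing.

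Markers of other cell types also differed between the groups, but few were past threshold. Of 12 skeletal muscle markers 11 were measured, and all 11 were higher at 4 °C and 10 lower on HFD without overlap, as were 37.9% and 5.8% of all genes tested. Only Myh7 was past threshold in the cold, where 1.22% of all genes tested were in that direction. None of the 11 was on HFD (limma adjusted p = 0.149 to 0.534). Their summed level was 541 and 130 FPKM at 22 °C, 4003 and 1864 FPKM at 4 °C, 565 and 1488 FPKM on NCD and 198 and 38.9 FPKM on HFD, highest at 4 °C and next on NCD as for Elovl3. Within 4 °C the library with more Elovl3 had the higher muscle sum, within 22 °C and within NCD the library with more Elovl3 had the lower muscle sum, and the HFD libraries held 18.1 and 17.8 FPKM of Elovl3 at muscle sums of 198 and 38.9 FPKM. All 8 macrophage markers were higher on HFD without overlap, as were 39.9% of all genes tested, with sums of 282 and 318 FPKM against 137 and 51.9 FPKM on NCD, beside the higher Elovl1. None of these 8 was past threshold (limma adjusted p = 0.151 to 0.390). The white adipocyte marker sum was 165 and 173 FPKM on HFD and 22.5 and 13.2 FPKM on NCD. Of the 8 skin and sebaceous gland markers 5 were under 0.1 FPKM in each group, namely Krt5, Krt14, Krt1, Lor and Awat1, whereas Mgst1 ran from 243 to 609 FPKM, Krt79 from 1.06 to 5.24 FPKM with HFD above NCD without overlap, and Krt10 from 0.615 to 1.74 FPKM. Awat1 was listed at 0 in all 22 °C, 4 °C and NCD libraries. The part of muscle, macrophages and white adipocytes in the results was not tested.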

How the data were processed

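RNA-Seq of 8 mouse BAT libraries (4 groups of 2) was analysed. Per the study's methods and processing notes, the authors depleted rRNA, made directional libraries, aligned reads to GRCm38 with TopHat2 2.0.10 and quantified Ensembl genes with Cufflinks. The deposited table holds FPKM for 49452 genes, without pooling of replicates; no counts were used here, so the authors' DESeq2 analysis was not repeated. Depth per library is not given, and fragment numbers were estimated from the step between low FPKM values, with the longest annotated transcript of each member. They cover counting error only. Groups came from the labels, which do not say that libraries are separate mice; otherwise p-values measure the spread between libraries only.

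The test was limma 3.58.1 (R 4.3.3) on log2(FPKM + 1) values (lmFit, eBayes with intensity trend, two-sided, no covariate) on the libraries compared, for autosomal genes with at least 0.1 FPKM in at least 2 libraries, with Benjamini-Hochberg adjustment over all genes of a comparison. Past threshold means an adjusted p under 0.05 and an absolute log2 difference of at least 1. Adding 1 understates differences of low genes. The planned design assumed FPKM. The code was tested on simulated data with normal noise of the real size, with 50 changed genes per size of difference. Log2 differences of 1, 2, 3 and 4 were called in 2%, 42%, 70% and 80% of these genes in the cold comparison. In the diet comparison 0%, 6%, 40% and 50% were called. A gene not past threshold was thus not shown to be unchanged. Alternatives were other pseudocounts, filters, scalings, chromosomes, samples and terms.

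All 7 members are named, as are list genes past threshold, the 2 largest non-overlapping differences per list and comparison, Ucp1 and the 3 closest profiles per member with a mean of at least 1 FPKM; Tecr, Srebf1 and other list genes mentioned by overlap only were chosen after their values were seen. Members and lists were chosen with earlier results of these data known. Coding sequences (GENCODE M21) were aligned globally with Biopython 1.88. The histidine box was found in frame by its histidine codons.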

Additional observations from a re-analysis of the deposited data

How the results depend on the processing

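No paired analysis was possible because 22 °C and 4 °C share no replicate number and NCD and HFD share only 1. The count of genes past threshold moved with the processing while most tested member differences kept their direction and side of the threshold (265 of 306 values over all comparisons, with 8 reversed). Much of that tally could not come out otherwise. Changes of filter, trend, chromosomes, groups fitted or library type term cannot alter a difference. In the main fits only 1 of 5 members was past threshold in the cold, 1 in the difference of effects and 0 in the other comparisons. The count in the cold comparison was 252 and became 474 with a pseudocount of 0.1, 0 with no filter and 0 without the intensity trend, 529 with a filter of 1 FPKM, 708 with median centring, 491 with quantile normalization, 585 rescaled to the autosomal sum, 920 with X, Y and mitochondrial genes kept, 439 with all 8 libraries fitted, and 859 or 869 with library type as a term in 4 or 8 libraries. Leaving out 1 library gave 1 to 767. The split of 213 higher and 39 lower became 313 and 178 with quantile normalization and 311 and 274 rescaled. The diet count of 12 became 0 with no filter, quantile normalization, rescaling, X, Y and mitochondrial genes kept or no trend, 24 with the 1 FPKM filter, 75 with all 8 libraries, 745 or 439 with library type in 4 or 8 libraries, and 98 to 726 leaving out 1 library. The count between NCD and 22 °C was 0, and became 9 with a pseudocount of 0.1, 2 with the 1 FPKM filter, 1 with median centring or quantile normalization, 17 with all 8 libraries, 532 or 140 with library type, and 0 to 195 leaving out 1 library. The count for the difference of effects was 196, and became 8 with no filter, 458 with median centring, 418 with quantile normalization, 904 rescaled, 94 with all chromosomes, 599 with library type, 55 without the trend, and 6 to 539 leaving out 1 library. The cause of these shifts was not tested.

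Besides the reversals of Elovl1 in the cold (-0.13 rescaled and -0.0049 with quantile normalization) and of Elovl5 in the difference of effects (-0.045 and -0.018, and up to 0.61 without 22 °C replicate 7), Elovl6 between NCD and 22 °C reversed from 0.05 to -0.16 with quantile normalization, -0.049 rescaled, -0.66 without 22 °C replicate 4 and -0.099 without NCD replicate 6, and was 0.76 without 22 °C replicate 7. With a pseudocount of 0.1 in place of 1 the mean log2 ratio in NCD moved to 1.66 for Elovl6 to Elovl5 and to -3.13 for Elovl1 to Elovl5. Groups of 2 and the low fragment numbers of Elovl2 and Elovl7 limit what could be seen.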
